A study of Mus musculus with 10 samples.

Results

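Wnt ligands, their secreted inhibitors, the effector β-catenin and several of their target genes were examined in obstructed mouse kidneys. The 10 genes were taken by symbol from the deposited expression table: the ligands Wnt7b and Wnt10a, the effector gene Ctnnb1, the nuclear partner Lef1, the feedback genes Axin2 and Nkd1, and the secreted inhibitors Dkk2, Dkk3, Sfrp1 and Sfrp2. All 10 were found among 54532 genes. The study compared whole kidneys of Padi4-knockout mice with those of wild-type mice (n = 5 libraries each), all taken after 10 days of unilateral ureteral obstruction (UUO), in which the ureter of 1 kidney is tied off and that kidney becomes inflamed and scarred. Padi4 encodes peptidylarginine deiminase 4, an enzyme that turns arginine into citrulline in histones. The sources used here give no strain, sex, age or allele design. Whether the 5 libraries of a genotype are 5 different mice is not stated, so the spread behind each p-value may be technical.

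Wnt proteins are secreted lipid-modified ligands that bind Frizzled receptors together with the co-receptors Lrp5 and Lrp6. Without ligand, a complex built on Axin, APC and the kinase GSK3 marks β-catenin for destruction. With ligand, β-catenin escapes, enters the nucleus and acts with TCF/LEF proteins on target genes, several of which feed back to damp the signal. In the mouse, Wnt7b of the collecting duct is needed to form the renal medulla, and Wnt/β-catenin signalling is known to be reactivated in tubules and interstitial cells of obstructed kidneys.

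Levels are given as FPKM, read fragments scaled for gene length and by 1 factor per library, as the authors deposited them. The libraries held 15002922 to 16886945 reads on genes. Padi4 measured 0.256 FPKM ± 0.164 in knockout and 0.358 FPKM ± 0.183 in wild-type kidneys (SD, n = 5 each, exact two-sided permutation p = 0.373), from 9 to 43 reads and 6 to 47 reads per library, so it did not check the genotype labels. Wild-type library 1 stood apart from the other 9 on the first principal component, at -22.8 against -6.18 to 11.4. It had 8.11% mitochondrial reads against 3.18% to 5.79%, and a summed level of 10 proximal tubule markers of 17039 FPKM against 3368 to 9743 FPKM. Most of that sum was 1 marker, Kap, at 15646 FPKM against 2957 to 9142 FPKM. The mean log2(FPKM + 1) of the 10 markers, on which 1 gene weighs less, was 7.43 against 5.53 to 6.60. Differences between the genotypes are therefore also given without wild-type 1, for each member and for each further gene or list that this moves by over 1.5 times or turns. All 9 marker lists for kidney segments and neighbouring cell types were present, with no marker at 0 in every library. Some markers were still near the floor, such as Avpr2 and Pvalb, which reached at most 0.0511 and 0.125 FPKM.

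The members spanned a wide range of levels. Averaged over the 10 libraries, Ctnnb1 stood at 139 FPKM, followed by Sfrp1 at 41.6 FPKM, Dkk3 at 30.6 FPKM and Dkk2 at 15.7 FPKM. Wnt7b averaged 5.16 FPKM, Nkd1 4.66 FPKM, Sfrp2 3.66 FPKM, Wnt10a 2.56 FPKM, Axin2 1.50 FPKM and Lef1 0.184 FPKM. Ctnnb1 lay above Sfrp1, and Axin2 above Lef1, with no overlap of their ranges. Sfrp1 exceeded Dkk3, Dkk2 exceeded Wnt7b and Wnt10a exceeded Axin2 within all 10 libraries, although these ranges overlapped. Wnt7b exceeded Nkd1 in 5 of 10 libraries, so these neighbours had no fixed order. Of the secreted inhibitors, 3 of 4 were thus more abundant per length than either ligand on average.

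**Figure D1:**
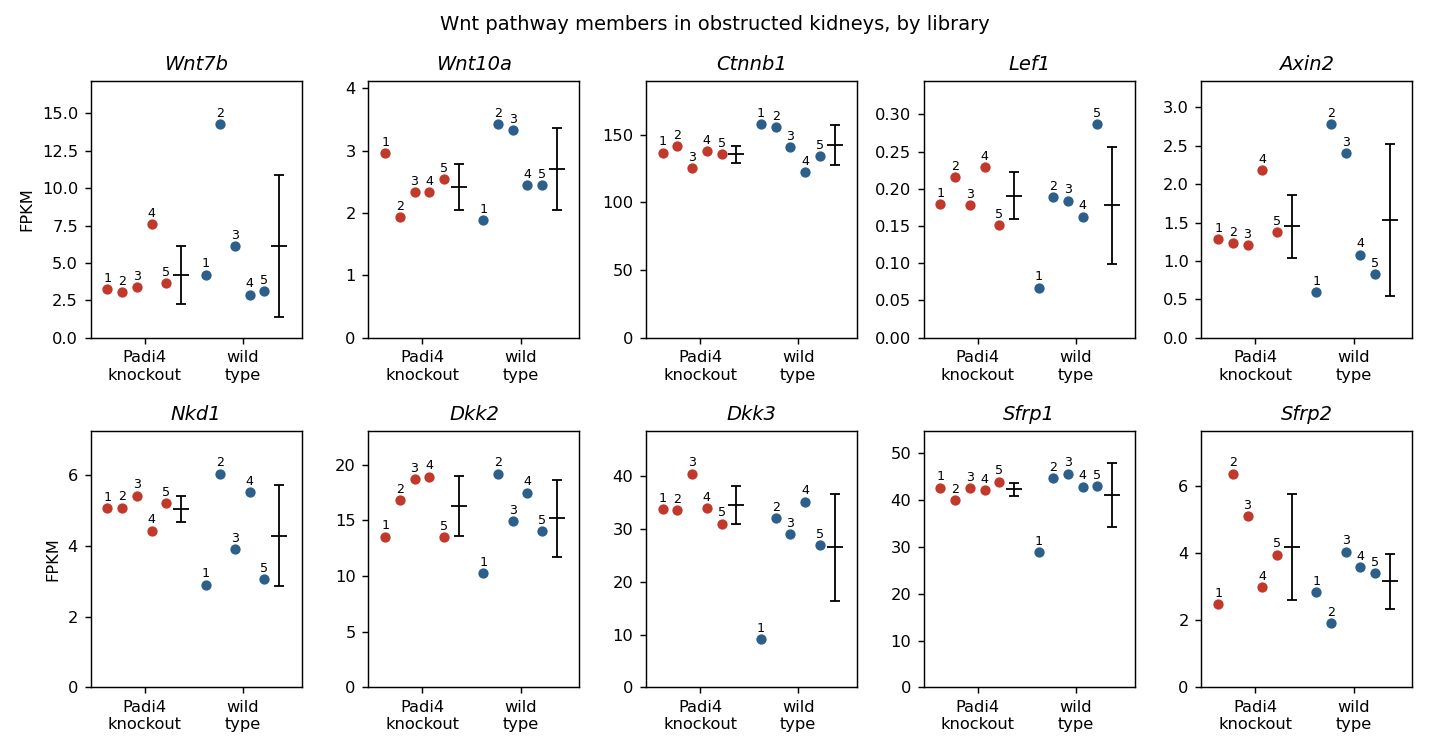
Level of each member in FPKM (vertical axes start at 0) in 5 Padi4 knockout and 5 wild-type libraries, with the library number above each point and the group mean ± SD at its right. Wild-type 1 is the lowest library for 7 of the 10 genes, and Wnt7b reaches 14.3 FPKM in wild-type 2.

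Of the member ligands, Wnt7b varied more between libraries than Wnt10a, and its high libraries came from both genotypes. Wnt7b (ENSMUSG00000022382, chr15:85535437-85582473, minus strand, in coordinates that match GRCm38) measured 3.24, 3.06, 3.39, 7.60 and 3.63 FPKM in knockout libraries 1 to 5, against 4.22, 14.3, 6.13, 2.88 and 3.10 FPKM in wild-type libraries 1 to 5. Knockout 4 and wild-type 2 and 3 were the high libraries, and the groups overlapped. The means were 4.18 FPKM ± 1.92 in knockout and 6.13 FPKM ± 4.75 in wild-type kidneys (SD, n = 5 each). The log2 difference of FPKM + 1, knockout minus wild type, was -0.32 (95% interval -1.08 to 0.44, limma adjusted p = 0.976). Leaving out wild-type 1 gave -0.38. Leaving out wild-type 2 gave 0.0079, so the sign rested on that library. In whole-kidney RNA, fewer cells of a type and less RNA per cell cannot be told apart. The 8 collecting duct markers summed to 160 to 297 FPKM in knockout and 161 to 235 FPKM in wild-type kidneys. The 8 markers of urothelium and renal pelvis summed to 45.0 to 155 FPKM in knockout and 30.5 to 133 FPKM in wild-type kidneys.

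Wnt10a, a second ligand that acts through β-catenin (ENSMUSG00000026167, chr1:74791516-74804179, plus strand), moved within a narrower range. It measured 2.96, 1.93, 2.34, 2.34 and 2.54 FPKM in knockout libraries 1 to 5, against 1.88, 3.43, 3.33, 2.44 and 2.44 FPKM in wild-type libraries 1 to 5. Both the lowest and the highest library were wild type, so the knockout values lay inside the wild-type range. Knockout minus wild type was -0.10 on the same log2 scale (95% interval -0.39 to 0.18, limma adjusted p = 0.976), -0.19 without wild-type 1 (limma adjusted p = 0.751) and -0.034 without wild-type 2 (limma adjusted p = 0.999).

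Ctnnb1, which encodes β-catenin both as a signalling protein and as a part of cell junctions, was abundant and steady. The gene (ENSMUSG00000006932, chr9:120929216-120960507, plus strand) measured 137, 142, 125, 138 and 136 FPKM in knockout libraries 1 to 5, against 158, 156, 141, 122 and 134 FPKM in wild-type libraries 1 to 5. Here wild-type 1 was the highest library, unlike for most other members. The coefficient of variation was 4.44% in knockout and 10.5% in wild-type kidneys (n = 5 each). The genotypes differed by -0.065 on the log2 scale (95% interval -0.28 to 0.15, limma adjusted p = 0.976). Leaving out 1 library moved this between -0.12 without wild-type 4 and -0.026 without wild-type 1. β-catenin is regulated mainly through stability of the protein, which RNA levels do not show.

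Lef1, the high-mobility-group protein that brings β-catenin to DNA and is also made by T cells, was close to the detection floor. The gene (ENSMUSG00000027985, chr3:131110471-131224356, plus strand) measured 0.179, 0.216, 0.178, 0.229 and 0.151 FPKM in knockout libraries 1 to 5, against 0.0671, 0.188, 0.184, 0.163 and 0.287 FPKM in wild-type libraries 1 to 5. These values rest on 8 to 41 reads per library. Its mean lay under the 1 FPKM needed to enter the fit across genes, and its mean log2 difference of 0.017 was tested alone (exact two-sided permutation p = 0.722). With a pseudocount of 0.1 the difference was 0.11 (exact two-sided permutation p = 0.675). The mean was 0.190 FPKM in knockout kidneys (n = 5), against 0.178 FPKM in wild-type kidneys (n = 5) and 0.206 FPKM in the 4 wild-type libraries other than the first, so the order of the means rested on wild-type 1. The summed level of 9 T cell markers was 12.7 to 16.3 FPKM in knockout kidneys and 10.3 to 33.8 FPKM in wild-type kidneys. Wild-type 1 was lowest and wild-type 5 highest for both Lef1 and these markers, and their part in the Lef1 level was not tested.

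The feedback gene Axin2 was high in the same libraries as Wnt7b. Axin2 is a scaffold of the destruction complex that β-catenin itself induces, and it is widely read as a reporter of the pathway. The gene (ENSMUSG00000000142, chr11:108920349-108950783, plus strand) measured 1.28, 1.23, 1.20, 2.18 and 1.38 FPKM in knockout libraries 1 to 5, against 0.589, 2.79, 2.41, 1.08 and 0.827 FPKM in wild-type libraries 1 to 5. Knockout 4 and wild-type 2 and 3 were the 3 highest libraries, and all knockout values lay inside the wild-type range. The means were 1.45 FPKM ± 0.411 in knockout and 1.54 FPKM ± 0.99 in wild-type kidneys (SD, n = 5 each). The log2 difference was 0.024 (95% interval -0.49 to 0.54, limma adjusted p = 0.997), with a sign opposite to that of the difference in mean FPKM, and 0.10 with limma-voom. Its sign turned without wild-type 1, at -0.12, and also without wild-type 4, wild-type 5 or knockout 4, at -0.026, -0.073 and -0.073.

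The stretch before the start of Axin2 is shown because this gene is the pathway's usual reporter and followed Wnt7b across libraries. It is the RefSeq promoter on GRCm38.p6, chr11:108920099-108920348, plus strand, and capitals mark the GC box letters GGGCGG, searched on both strands.
Axin2: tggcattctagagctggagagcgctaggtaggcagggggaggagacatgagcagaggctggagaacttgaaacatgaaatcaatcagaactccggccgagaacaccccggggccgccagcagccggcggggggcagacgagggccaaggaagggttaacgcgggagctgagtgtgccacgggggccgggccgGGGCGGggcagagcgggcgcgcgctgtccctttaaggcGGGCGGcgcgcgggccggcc
This window of 250 bases held 2 GC box matches and was 69.2% G or C, where the median over all 32851 promoters of that length was 52.4%. At least 1 GC box match was found in 32.7% of them. The TCF/LEF letters CTTTGAA and CTTTGAT, searched on both strands and not overlapping the GC box, were not in this window. They were in 7.48% of all promoters and in 0 of the 10 windows found for 6 members (Sfrp2, Lef1, Dkk2, Nkd1, Ctnnb1 and Axin2), some of which overlap. The windows of Nkd1 and Ctnnb1 and some of Lef1 lie inside the gene coordinates given here. Other forms of the TCF/LEF letters were not searched, so sites at these genes may have been missed.

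Nkd1, whose protein binds Dishevelled and limits Wnt signalling, is a feedback target as well and shared the Axin2 pattern only in part. The gene (ENSMUSG00000031661, chr8:88521354-88594884, plus strand) measured 5.05, 5.07, 5.41, 4.42 and 5.21 FPKM in knockout libraries 1 to 5, against 2.90, 6.03, 3.89, 5.52 and 3.07 FPKM in wild-type libraries 1 to 5. The knockout libraries lay close together and inside the wild-type range, and knockout 4, high for Axin2, was the lowest of them. Wild-type 2 was the highest library for both genes, and wild-type 5 and 1 were the lowest. On the log2 scale Pearson's r of Axin2 and Nkd1 was 0.48 (permutation p adjusted over all pairs of members = 0.356). The coefficient of variation of Nkd1 was 7.33% in knockout and 33.3% in wild-type kidneys (n = 5 each). Its log2 difference was 0.23 (95% interval -0.12 to 0.58, limma adjusted p = 0.976). Leaving out wild-type 1 gave 0.13, and leaving out wild-type 2 gave 0.35, with a limma unadjusted p of 0.0349 and an adjusted p of 0.996.

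Dkk3 had the largest difference in means of the 9 members tested, and most of it came from wild-type 1. Dkk3 is a divergent Dickkopf protein that stressed tubules are known to secrete in obstructed mouse kidneys, where its loss reduces fibrosis. The gene (ENSMUSG00000030772, chr7:112116017-112159057, minus strand) measured 33.8, 33.6, 40.6, 34.0 and 31.0 FPKM in knockout libraries 1 to 5, against 9.18, 32.2, 29.1, 35.2 and 27.0 FPKM in wild-type libraries 1 to 5. The groups overlapped, and wild-type 1 lay far below every other library. The means were 34.6 FPKM ± 3.55 in knockout and 26.5 FPKM ± 10.2 in wild-type kidneys (SD, n = 5 each), with 30.9 FPKM ± 3.59 in the 4 wild-type libraries other than the first. The log2 difference was 0.49 (95% interval -0.14 to 1.12, limma adjusted p = 0.976; exact two-sided permutation p = 0.0794). Without wild-type 1 it was 0.16 (95% interval -0.070 to 0.39, limma adjusted p = 0.753). The 12 fibroblast and myofibroblast markers were also lowest in wild-type 1, at 556 FPKM against 672 to 1254 FPKM in knockout and 744 to 1012 FPKM in the other wild-type libraries. Wild-type 1 was lowest as well for the summed markers of T cells, at 10.3 FPKM, and of urothelium and renal pelvis, at 30.5 FPKM. It was highest for those of the proximal tubule, at 17039 FPKM, of which Kap alone made up 15646 FPKM. The part of any of these cell types in the Dkk3 level was not tested.

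Dkk2, which binds Lrp5 and Lrp6 and blocks or aids the signal depending on its partners, showed the same low library. The gene (ENSMUSG00000028031, chr3:132085292-132180304, plus strand) measured 13.5, 16.8, 18.7, 18.9 and 13.5 FPKM in knockout libraries 1 to 5, against 10.3, 19.2, 14.9, 17.5 and 14.0 FPKM in wild-type libraries 1 to 5. The knockout values lay inside the wild-type range. Its log2 difference was 0.11 (95% interval -0.24 to 0.46, limma adjusted p = 0.976) and -0.013 without wild-type 1, so its sign rested on that library.

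Sfrp1, a secreted Frizzled-related protein that binds Wnt ligands, was the steadiest member apart from wild-type 1. The gene (ENSMUSG00000031548, chr8:23411502-23449632, plus strand) measured 42.6, 40.0, 42.5, 42.0 and 43.9 FPKM in knockout libraries 1 to 5, against 28.9, 44.6, 45.6, 42.8 and 42.9 FPKM in wild-type libraries 1 to 5. Wild-type 1 was low and the other 9 libraries lay between 40.0 and 45.6 FPKM. The means were 42.2 FPKM ± 1.40 in knockout kidneys (SD, n = 5) and 44.0 FPKM ± 1.35 in the wild-type kidneys other than the first (SD, n = 4). On the log2 scale the difference was 0.060 with all libraries (95% interval -0.20 to 0.32, limma adjusted p = 0.981) and -0.058 without wild-type 1 (95% interval -0.22 to 0.10, limma adjusted p = 0.877).

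Sfrp2, a related binder of Wnt ligands, behaved unlike Sfrp1. The gene (ENSMUSG00000027996, chr3:83766321-83774316, plus strand) measured 2.48, 6.36, 5.08, 2.98 and 3.95 FPKM in knockout libraries 1 to 5, against 2.84, 1.92, 4.04, 3.58 and 3.40 FPKM in wild-type libraries 1 to 5. Knockout 2 and 3 were the highest libraries and wild-type 2 the lowest, and the groups overlapped. It varied more within knockout than within wild-type kidneys, with a coefficient of variation of 37.8% and 25.7% (n = 5 each). On the log2 scale the difference was 0.29 (95% interval -0.17 to 0.74, limma adjusted p = 0.976) and 0.26 without wild-type 1. It was 0.15 without knockout 2 and 0.16 without wild-type 2, and 0.42 without knockout 1.

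No member differed between the genotypes beyond the spread of the libraries. With limma, 0 of the 9 members tested had a Benjamini-Hochberg adjusted p under 0.05, where 0 of all 13435 genes tested did (0%). At an unadjusted p under 0.05 limma gave 0 of the 9 members, where 4.05% of all genes passed, and limma-voom on the recovered reads gave 0 members at either threshold. For 0 of all 10 members did the groups not overlap, where this held for 0.744% of the genes tested. Of the 9 members, 6 had higher and 3 lower mean log2 levels in knockout kidneys, with a median log2 difference of 0.060, against 0.0051 over all genes tested. Without wild-type 1 the split was 3 higher and 6 lower, with a median of -0.026 against 0.0069 over all genes. The intervals do not show that the genotypes are alike: for Dkk3 and Wnt7b they reach differences of over 1 on the log2 scale.

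**Figure D2:**
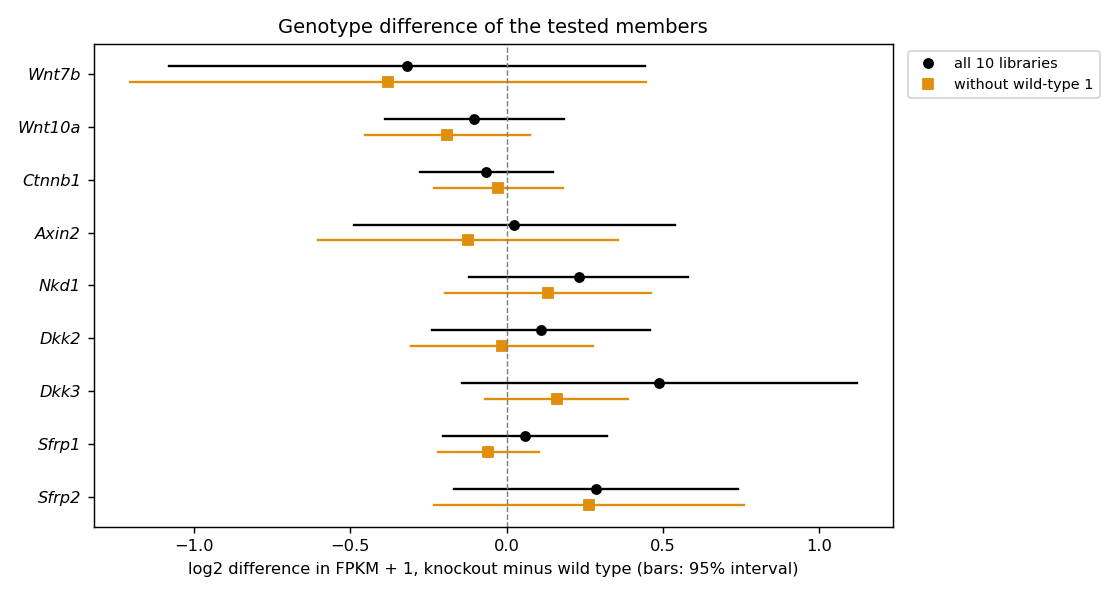
Log2 difference in FPKM + 1, knockout minus wild type, of the 9 members tested, with 95% intervals from limma, for all 10 libraries (black circles) and without wild-type 1 (orange squares). Every interval crosses 0, and the Dkk3 value shrinks to 0.16 from 0.49 when wild-type 1 is left out.

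A few libraries held the extreme values of many members. Wild-type 1 was the lowest library for 7 of 10 members, whereas it was the lowest library for 17.2% of all genes tested. Wild-type 2 was the highest library for 5 of 10 members, whereas it was the highest for 15.9% of all genes tested. The spread of log2 values was smaller in knockout than in wild-type kidneys for 9 of 10 members, Sfrp2 being the exception, and for 59.3% of all genes. Without wild-type 1 this held for 7 of 10 members and for 49.1% of all genes.

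**Figure D3:**
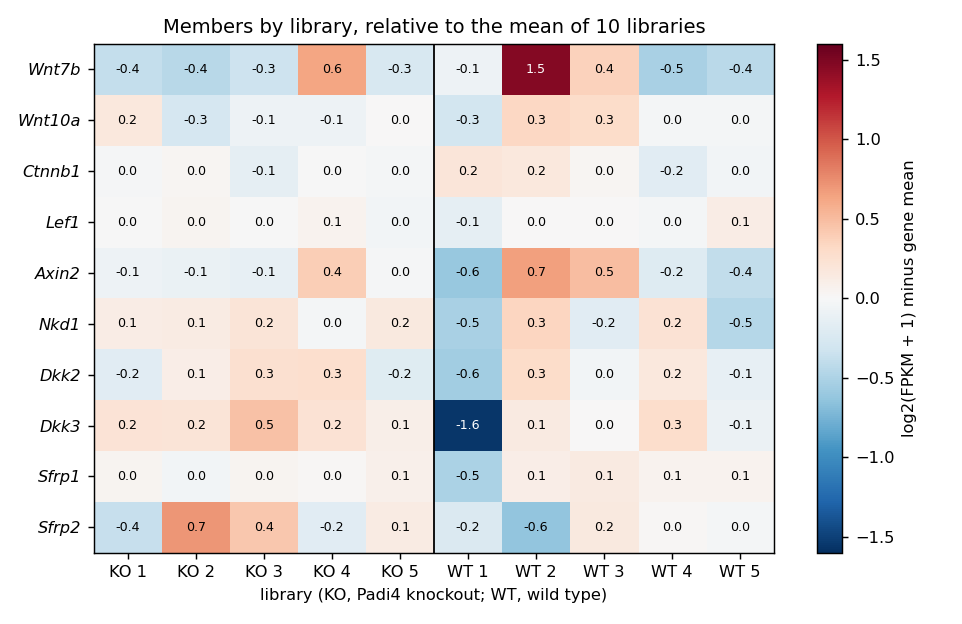
Log2(FPKM + 1) of each member in each library minus that gene's mean over 10 libraries, with knockout libraries (KO) left of the line and wild-type libraries (WT) right of it. The wild-type 1 column is low for most genes, while Wnt7b and Axin2 are both high in KO 4, WT 2 and WT 3.

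Correlations across the 10 libraries were computed for all 45 pairs of members on log2(FPKM + 1), with permutation p-values adjusted by Benjamini-Hochberg over the pairs. For 4 pairs, all with r above 0, the adjusted p of Pearson's r was under 0.05, and 1 of them also passed with Spearman's rho. Axin2 followed Wnt7b with r = 0.81 (adjusted permutation p = 0.0484) and rho = 0.65 (adjusted permutation p = 0.538). Without knockout 4 and wild-type 2, the libraries farthest from the Wnt7b median, r was 0.58 (exact permutation p = 0.164), so the relation rests in part on those libraries. With the genotype means removed r was 0.85 (adjusted permutation p = 0.0423). Leaving out 1 library gave r of 0.71 to 0.92, and the pair passed in 1 of these 10 cases, without wild-type 1 (r = 0.92, adjusted exact permutation p = 0.0474), with an adjusted permutation p of up to 0.264 in the others.

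Sfrp1 followed Wnt10a with r = 0.68 (adjusted permutation p = 0.0484) and rho = 0.92 (adjusted permutation p = 0.0274), and this pair passed with both measures. Leaving out 1 library gave r of 0.65 to 0.87, and the pair passed in 0 of these 10 cases (adjusted permutation p up to 0.264, and 0.0509 without wild-type 1). With the genotype means removed r was 0.76 (adjusted permutation p = 0.0423). Without wild-type 2 and 3, the libraries farthest from the Wnt10a median, r was 0.69 (exact permutation p = 0.0448). Dkk3 followed Dkk2 with r = 0.80 and Nkd1 with r = 0.74 (adjusted permutation p = 0.0484 for both), with rho of 0.62 and 0.65 (adjusted permutation p = 0.538 for both). Without the 2 libraries farthest from the median of the other gene these were 0.69 and 0.45 (exact permutation p = 0.0552 and 0.258). Without wild-type 1 the r of Dkk2 and Dkk3 was 0.60 (adjusted permutation p = 0.374) and that of Nkd1 and Dkk3 was 0.70 (adjusted permutation p = 0.243). With the genotype means removed they were 0.81 (adjusted permutation p = 0.0423) and 0.68 (adjusted permutation p = 0.157), so the second pair did not pass. The highest r of all belonged to Dkk3 and Sfrp1, at 0.90, but it was not past the threshold (adjusted permutation p = 0.264) and rho was -0.19 (adjusted permutation p = 0.955). Without wild-type 1 that r was -0.41 (adjusted exact permutation p = 0.532), so the r of that pair rested on 1 library. When each library was left out in turn, 0 or 1 of the 45 pairs passed.

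**Figure D4:**
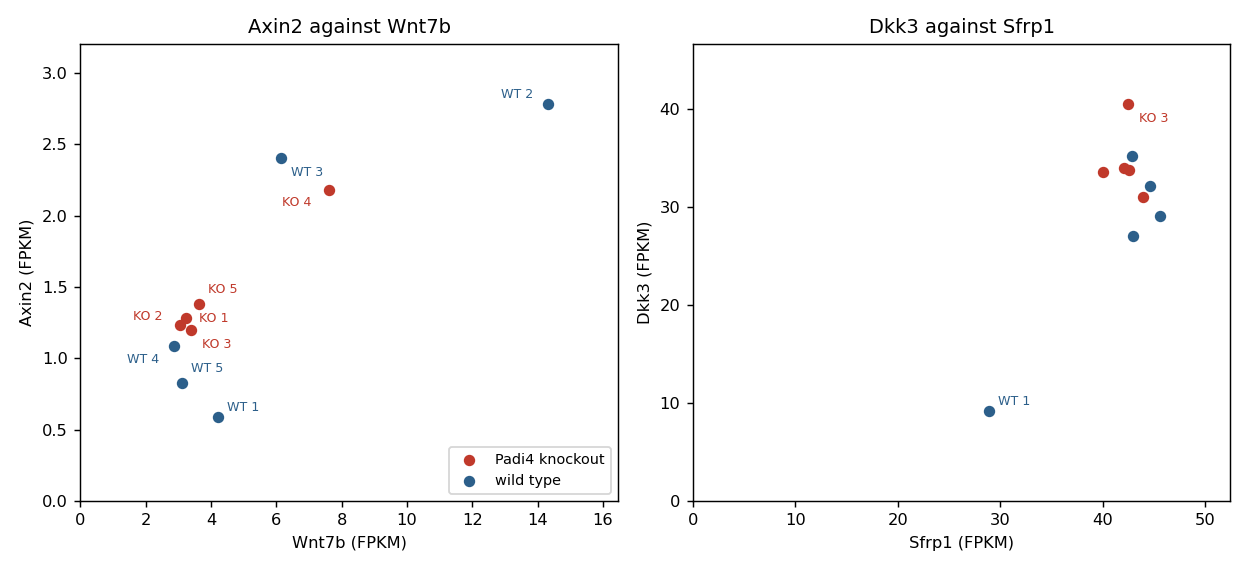
Axin2 against Wnt7b and Dkk3 against Sfrp1, in FPKM, 1 point per library (red, Padi4 knockout, KO; blue, wild type, WT). In the left panel KO 4, WT 2 and WT 3 are high for both genes, and in the right panel WT 1 stands apart from the other 9 libraries, which lie between 40.0 and 45.6 FPKM of Sfrp1.

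Beyond the members, 106 further genes of the pathway were listed by role, of which 77 reached the mean of 1 FPKM, 40 with higher and 37 with lower mean log2 levels in knockout kidneys. With limma, 0 of the 77 had an adjusted p under 0.05. At an unadjusted p under 0.05 limma gave 2 of them, Notum and Myc, where 4.05% of all genes tested passed. Without wild-type 1 the split turned to 35 higher and 42 lower, with 0 past the threshold. In that fit 5 of the 77 had a limma unadjusted p under 0.05, Notum higher and Cd44, Myc, Tcf7 and Twist1 lower. Of all 13442 genes tested without wild-type 1, 916 did. Among other ligands 7 of 17 were tested, 5 higher and 2 lower, led by Wnt5b, a ligand of β-catenin-independent signalling, at 0.15 on the log2 scale. Without wild-type 1 these were 3 higher and 4 lower, with a median of -0.034 in place of 0.067, and Wnt5b at 0.091. The acyltransferase Porcn, which attaches the lipid to Wnt proteins, and the carrier Wls, which takes them to the surface, differed by 0.11 and 0.0061, and by 0.060 and 0.036 without wild-type 1. Of 13 receptors and co-receptors tested, 6 were higher and 7 lower, with Fzd2 at 0.25, Fzd5 at -0.12 and Fzd1 at 0.15. Without wild-type 1, 5 were higher and 8 lower, with a median of -0.030 in place of -0.0095, Fzd2 at 0.12 and Fzd1 at 0.081. The R-spondin module had 3 of 9 genes tested. Rnf43 and Znrf3, ubiquitin ligases that remove Frizzled receptors from the surface, differed by -0.16 and -0.061. Lgr4, an R-spondin receptor that restrains these ligases, differed by 0.0037. Without wild-type 1, Znrf3 differed by -0.015 and Lgr4 by 0.13.

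Other secreted or surface inhibitors, 14 genes listed, had higher means in knockout kidneys for 7 of 8 genes tested, with a median log2 difference of 0.21. The genes of this list under the mean of 1 FPKM were not tested, and their means differed in both directions. Notum, an enzyme that strips the lipid from Wnt proteins, measured 2.30, 1.98, 2.05, 1.56 and 1.40 FPKM in knockout libraries 1 to 5, against 2.21, 0.555, 1.02, 0.80 and 1.38 FPKM in wild-type libraries 1 to 5. The knockout libraries were all above 4 of the 5 wild-type libraries, with wild-type 1 the exception. Without wild-type 1 the groups did not overlap for 2.14% of all genes tested. The Notum log2 difference of 0.42 did not pass (limma unadjusted p = 0.0401, adjusted p = 0.976). It was 0.71 with a pseudocount of 0.1 and 0.79 with limma-voom, and passed with neither (adjusted p = 0.974 and 0.967). Without wild-type 1 it was 0.57 (limma unadjusted p = 0.0025, adjusted p = 0.538). Trabd2b, a membrane protease that cleaves Wnt proteins, and Sfrp5 differed by 0.30 and 0.21. Sfrp5 stood at 0.14 without wild-type 1. Without that library, 6 of the 8 genes were higher, with a median of 0.089. Where 51.6% of all genes tested had higher means in knockout kidneys, no test of this list was made.

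Other targets had higher means for 5 and lower means for 8 of 13 genes tested, with a median log2 difference of -0.18, and for 2 and 11 without wild-type 1. Myc, a growth regulator with many inputs besides Wnt, measured 16.9, 18.5, 19.5, 22.9 and 19.3 FPKM in knockout libraries 1 to 5, against 23.8, 24.5, 24.4, 23.6 and 20.8 FPKM in wild-type libraries 1 to 5. Knockout 4 alone of its group reached the wild-type range. Without knockout 4 the groups did not overlap for 3.51% of all genes tested. The Myc log2 difference of -0.26 did not pass (limma unadjusted p = 0.0142, adjusted p = 0.976). Plaur, the urokinase receptor, and the AP-1 factor gene Fosl1 differed by -0.28 and -0.30, and by -0.19 and -0.14 without wild-type 1. In the destruction complex and Dishevelled list 6 of 13 genes were higher and 7 lower, with Ctnnbip1, an inhibitor that keeps β-catenin from TCF proteins, at 0.23. Nuclear partners split 4 to 5 and the planar polarity branch 4 to 5, with Tcf7l1 at 0.15 and Daam2 at 0.27 as the genes of smallest p. Tcf7l1 and Daam2 stood at 0.040 and 0.16 without wild-type 1. Without that library the destruction complex and Dishevelled list turned to 7 higher and 6 lower, and the planar polarity branch to 5 and 4.

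**Figure D5:**
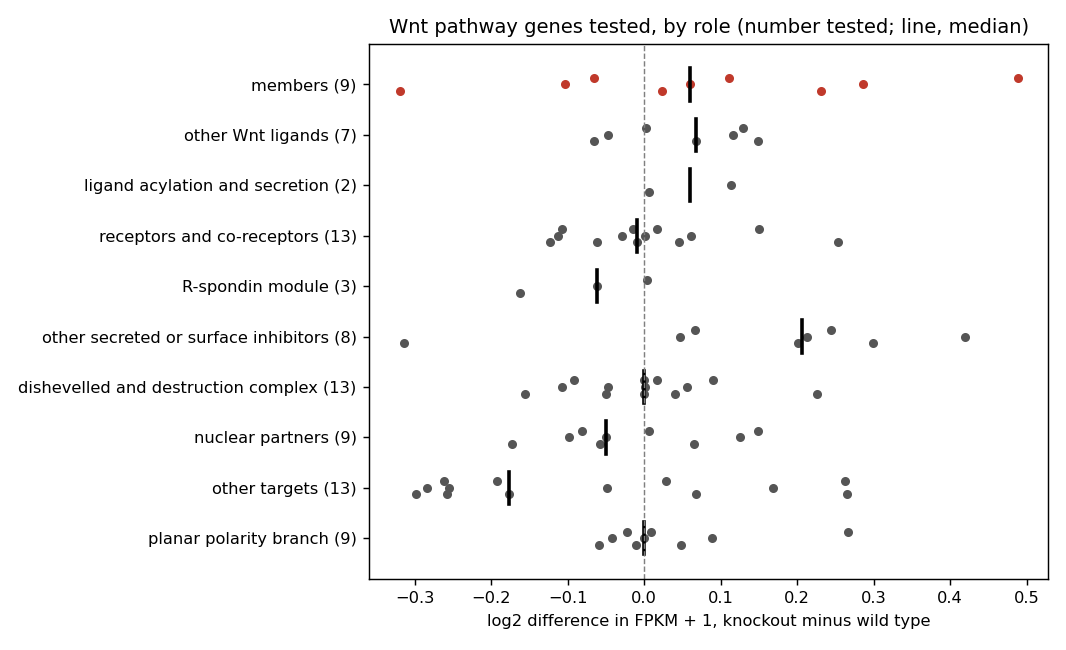
Log2 difference in FPKM + 1, knockout minus wild type, of each tested member (red) and of 77 further pathway genes (grey) by role, with the number tested in brackets and the median as a black line. Inhibitors have the highest median, 0.21, and other targets the lowest, -0.18.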

How the data were processed

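The header of the authors' table names no unit. Its values behave as FPKM that the authors deposited: each value above 0 times the deposited gene length was a whole multiple of 1 step per library (100% within 0.01 reads). The deposited values already carry a library scaling by median-of-ratios factors, since implied totals divided by such factors gave 1 constant. Limma-voom was given the same implied totals, so it kept that scaling. Reads were aligned with HISAT2 2.0.5, per the submitters' processing notes. The sources used here name no counter, strand setting, annotation or build. Without a known strand setting, reads of overlapping antisense genes cannot be told apart. Of the gene identifiers, 99.9% were found in GENCODE M21 (GRCm38), 98.3% of these with the same coordinates, the 10 members included.

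Limma 3.58.1 in R 4.3.3, with a variance trend and genotype as the only term, was fitted to log2(FPKM + 1) of 13435 genes whose mean reached 1 FPKM. This scale understates changes of low genes. P-values were adjusted by Benjamini-Hochberg over these genes, with a threshold of 0.05. Single genes were tested with exact permutation over 252 splits (smallest p 0.00794), and correlations with 100000 permutations. The limma fit was tested on simulated data. Alternatives were upper quartile scaling, limma-voom on recovered reads, other filters (none, 5 FPKM), a pseudocount of 0.1, a block on replicate number and each library left out. The values without wild-type 1 for further pathway genes were added after seeing the data. Promoters are RefSeq's. Members and lists were chosen with earlier results of these data known. All members are named, and up to 3 genes of smallest p per list. The libraries compared pairwise within a genotype differed by more than sampling noise (lowest chi-square per gene 12.4).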

Additional observations from a re-analysis of the deposited data

Results flagged for a closer look

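In 38 groups of 5 libraries examined (10 members and 9 marker lists in each genotype), 4 held a value far from the other 4 libraries, and chance alone flags about 1 in 20. Wnt7b in knockout 4 stood at 3.10 on the log2(FPKM + 1) scale, with a gap to the nearest knockout library of 0.825 of the group's range. Axin2 in the same library stood at 1.67, with a gap of 0.789 of the range. Dkk3 in wild-type 1 stood at 3.35, with a gap of 0.797 of the range. Sfrp1 in wild-type 1 stood at 4.90, with a gap of 0.860 of the range. The marker lists gave no flag in knockout 4 or in any other library.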

How the results depend on the processing

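With upper quartile scaling, limma-voom, no filter, a minimum mean of 5 FPKM, a pseudocount of 0.1 or 1 library left out, limma called 0 genes and 0 members. Groups of 0 members came apart with upper quartile scaling or 1 library left out. With 1 library left out, the groups came apart for 0.901% to 3.51% of all genes tested. The members' log2 differences kept their sign in all fits with 10 libraries. With 1 library left out, Wnt7b ranged from -0.52 to 0.0079, Axin2 from -0.12 to 0.19, Dkk2 from -0.013 to 0.20 and Sfrp1 from -0.058 to 0.10, with a turn of sign without wild-type 1 for the last 3, without wild-type 2 for Wnt7b, and without wild-type 4, wild-type 5 or knockout 4 for Axin2. The other members kept their sign, with Wnt10a at -0.19 to -0.034, Ctnnb1 at -0.12 to -0.026, Nkd1 at 0.13 to 0.35, Dkk3 at 0.16 to 0.62 and Sfrp2 at 0.15 to 0.42. The count of correlated pairs was 4 with all libraries and 0 to 1 with 1 library left out, and the cause was not tested. With the replicate number as a block (replicate block), 0 genes and 0 members were called, and 435 genes against 544 had an unadjusted p under 0.05. No pairing by number was seen: deviations of same-numbered libraries correlated at -0.34 to 0.31, and knockout libraries other than the first did not correlate best with their own number. These correlations cannot show that no libraries were handled together. Lef1 is limited by depth, at 8 to 41 reads per library.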

Other observations

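The 3 libraries highest for both Wnt7b and Axin2 were also the highest for other genes of the pathway, a pattern noted after the values were seen and not tested. Of the 77 further pathway genes tested, 9 had knockout 4 and wild-type 2 and 3 as their top 3 libraries (11.7%), where 3.43% of all genes tested did. The 9 were Wnt4, Wnt5a, Wnt9b, Fzd6, Rnf43, Apcdd1, Apc, Tle4 and Cd44. Wnt4, a ligand that induces nephrons in the embryo and is made again in injured kidneys, measured 4.59, 4.43, 8.24, 10.2 and 4.45 FPKM in knockout libraries 1 to 5, against 2.32, 14.95, 9.93, 4.69 and 4.15 FPKM in wild-type libraries 1 to 5. Wnt9b, the ductal ligand that acts ahead of Wnt4 in nephron formation, measured 1.55 FPKM in knockout 4, against 2.96 and 1.43 FPKM in wild-type 2 and 3, and 0.327 to 0.961 FPKM in the other 7 libraries. Rnf43, an enzyme that removes Frizzled receptors, measured 1.99 FPKM in knockout 4, against 2.31 and 1.70 FPKM in wild-type 2 and 3, and 0.652 to 1.18 FPKM in the other 7 libraries. The summed collecting duct markers were 207 FPKM in knockout 4, against 235 and 211 FPKM in wild-type 2 and 3, and 160 to 297 FPKM in the other 7 libraries, with wild-type 2 and 3 the highest of their genotype. The mean log2(FPKM + 1) of 10 proximal tubule markers was lowest in these same 3 libraries, at 5.86 in knockout 4, against 5.53 and 5.67 in wild-type 2 and 3, and 5.91 to 7.43 in the other 7. As summed FPKM these markers were lowest in wild-type 2 and 3, at 3368 and 3768 FPKM, but not in knockout 4. Knockout 4, at 5302 FPKM, lay above wild-type 4 at 4720 FPKM and knockout 2 at 4817 FPKM. For knockout 4, wild-type 4 and knockout 2, most of the sum was Kap, at 4832, 4201 and 4096 FPKM. By mean log2(FPKM + 1), on which Kap weighs less, knockout 4 at 5.86 lay below wild-type 4 at 5.91 and knockout 2 at 6.35. The part of cell composition in this shared pattern was not tested.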
